A study of Mus musculus with 16 samples.

Results

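miR-10a-5p and miR-10b-5p are the main mature products of the hairpins Mir10a and Mir10b, which lie in the Hoxb and Hoxd gene clusters of the mouse. They are 2 of the 853 mature microRNAs in the deposited count table, taken by their miRBase identifiers MIMAT0000648 and MIMAT0000208, and were chosen by their place in the Hox clusters with their counts in the 4 groups of these same libraries in view. Both passed the filter on low counts that 255 microRNAs passed. The libraries came from conventional type 1 dendritic cells (cDC1s) of the spleen, the dendritic cell subset specialised in presenting engulfed antigen to CD8 T cells. There were 16 small RNA libraries in 4 groups of 4. Compound-deficient cells lacked both Xbp1 and Ire1a (labelled Xbp1-Ire1 KO), Xbp1-deficient cells lacked Xbp1 (labelled Xbp1 KO), and each of these lines had a wild-type group of its own. The split of the wild types comes from the sample descriptions, while the sample titles number them as a single series. All mice were labelled C57BL6. The labels give neither the alleles nor the driver of the deletions, neither sex nor age, and do not say whether replicates were separate mice, so the spread between libraries may be technical. The microRNA table holds neither the deleted transcripts nor the surface markers of cDC1s, so genotype and cell identity were not checked against them.

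A microRNA is cut from a hairpin, loaded into an Argonaute protein and guided to messenger RNAs mainly by its seed, the bases near its 5′ end. miR-10a and miR-10b are old, conserved members of a family that sits beside the Hox genes, the transcription factors that set position along the body axis. miR-10a is also known from regulatory T cells of the mouse. IRE1 senses unfolded protein in the endoplasmic reticulum. Its ribonuclease splices Xbp1 messenger RNA, from which the transcription factor is then made, and is known to cut some other RNAs, certain microRNA precursors among them. The Xbp1 deletion alone leaves that ribonuclease in place, and the compound deletion targets both, which is a contrast that the 4 groups allow.

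The mature sequences are shown first because the results turn on telling these microRNAs apart. They are given 5′ to 3′ as RefSeq lists them on build GRCm38.p6, with the seed (bases 2 to 8) in capitals.
miR-10a-5p: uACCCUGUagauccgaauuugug
miR-10b-5p: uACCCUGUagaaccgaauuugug
Both are 23 bases long and identical at 22 of them, and the single difference is U12A (miR-10a-5p base first, counted from the 5′ end). The seed is the same. Among the 1679 mature mouse sequences of the RefSeq table, these 2 alone carry that seed. The next closest sequence of similar length, aligned from its first base, had 9 mismatches to miR-10a-5p. That count allowed no gap or shift, so it misses any sequence that is alike only after a shift. How many mismatches the authors' counting allowed is not given in the sources used here. Some reads of the one may have been counted for the other.

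The hairpins differ more than their products do. Their sequences are shown with both mature arms in capitals, to place the counted 5p arm within its precursor.
Mir10a: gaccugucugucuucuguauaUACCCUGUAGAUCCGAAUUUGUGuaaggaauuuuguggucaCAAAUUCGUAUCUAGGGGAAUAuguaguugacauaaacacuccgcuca
Mir10b: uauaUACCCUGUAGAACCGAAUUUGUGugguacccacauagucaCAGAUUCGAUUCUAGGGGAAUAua
Mir10a lies on the plus strand of chromosome 11 at chr11:96317165-96317274 (GRCm38). In the GENCODE M21 annotation it falls between genes, 993 bp upstream of Hoxb4 and 11044 bp downstream of Hoxb5. Mir10b lies on the plus strand at chr2:74726070-74726137, within an intron of annotated transcripts of Hoxd4 and Hoxd3 that run on the same strand. The counted 5p arms occupy chr11:96317186-96317208 and chr2:74726074-74726096. The 3p arms, which are also mature microRNAs, differ from each other at 3 of 22 bases. Their levels are not reported, because the files give identifiers without names and no table used here pairs them.

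Loss of Xbp1, with or without Ire1a, went with less miR-10b-5p and about the same miR-10a-5p. miR-10b-5p in compound-deficient cells was 0.41 of the level in their wild type, and in Xbp1-deficient cells it was 0.53 of the level in theirs. miR-10a-5p stood at 1.12 and 1.09 times its wild-type level. miR-10a-5p was higher in every compound-line library than in every Xbp1-line library. It was 1.59 times as high in compound-deficient as in Xbp1-deficient cells. Between the wild types it was 1.55 times as high in the compound line. For miR-10b-5p these folds were 1.11 and 1.45, and the groups overlapped in both comparisons. Both microRNAs were picked with results of these data in view, and every comparison between the 4 groups counts as seen. The folds, standard errors and intervals here are therefore descriptions, with no p-value for either microRNA.

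Total microRNA counts per library ranged from 175165 to 978134 in compound-deficient cells, from 332923 to 882108 in the compound-line wild type, from 783372 to 1403393 in Xbp1-deficient cells and from 400210 to 1103001 in the Xbp1-line wild type. Levels are in CPM, counts brought to a common library total, on library sizes scaled by TMM, a method that balances libraries on the bulk of their microRNAs. In bulk libraries of sorted cells, fewer cells carrying a microRNA and fewer copies per cell cannot be told apart.

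miR-10b-5p, the rarer of the pair, stood at 635, 924, 461 and 877 CPM in compound-deficient replicates 1 to 4. In the compound-line wild type it stood at 1806, 1697, 1972 and 1542 CPM in replicates 1 to 4. All 4 deficient libraries lay below all 4 wild-type libraries, and the highest deficient value was well under the lowest wild-type value. The group means were 724 ± 217 CPM in compound-deficient cells and 1754 ± 181 CPM in their wild type (SD, n = 4). The log2 fold change from edgeR's quasi-likelihood fit was −1.29 (SE 0.27, 95% interval −1.85 to −0.72), which is the fold of 0.41 with an interval of 0.277 to 0.607. The median log2 fold change of all 255 microRNAs tested in this comparison was 0.04, and miR-10b-5p was at rank 19 by size of change. The call rule of an edgeR Benjamini-Hochberg adjusted p under 0.05 took 6 of the 255 as lower, or 2.35%, and miR-10b-5p was one of them. Limma, over the 473 microRNAs with deposited log2 values, did not call it. Separation of all libraries, with the deficient ones lower, held for 13 microRNAs, or 5.1%. Since this difference was in view when the microRNA was chosen, nothing is read from either count.

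In Xbp1-deficient cells miR-10b-5p stood at 557, 542, 760 and 730 CPM in replicates 1 to 4. In the wild type of that line it stood at 942, 785, 2112 and 1002 CPM in replicates 4, 5, 6 and 8. The deficient libraries again all lay below the wild-type libraries in CPM, by a narrow margin between deficient replicate 3 and wild-type replicate 5. On the deposited log2 values that pair stood the other way, at 9.629 in deficient replicate 3 and 9.624 in wild-type replicate 5. The groups thus overlapped on that scale. The means were 647 ± 114 CPM in Xbp1-deficient cells and 1210 ± 608 CPM in wild type (SD, n = 4), and edgeR put the log2 fold change at −0.90 (SE 0.27, 95% interval −1.46 to −0.35), a fold of 0.53. Wild-type replicate 6 carried much of this size. Without it the log2 fold change was −0.49, a fold of 0.71. miR-10b-5p was not among the 5 microRNAs called lower here, 1.96% of 255. It was called in 1 of the 8 fits with a library left out, the one without wild-type replicate 5. Of 7 other settings that kept both microRNAs apart, 3 called it: total counts as the only scaling, no filter on low counts, and DESeq2. Since this difference too was in view at the choice, nothing is read from these calls. Groups that did not overlap, with the deficient libraries lower, were found for 18 microRNAs, or 7.06%.

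**Figure D1:**
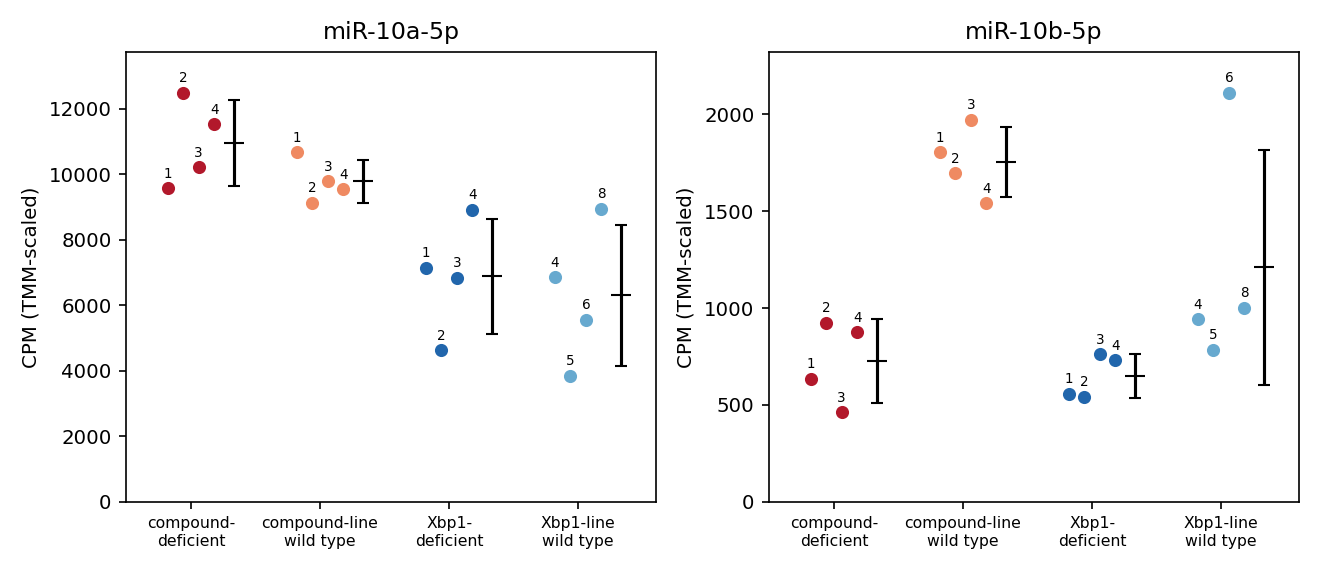
Level of miR-10a-5p (left) and miR-10b-5p (right) in CPM in each of the 16 libraries, by group. Points are libraries labelled with their replicate number, and bars are the group mean and SD (n = 4). On this CPM scale every deficient library has less miR-10b-5p than every wild-type library of its line, in the Xbp1 line by a narrow margin. The miR-10a-5p values of the 2 compound-line groups, between 9132 and 12495 CPM, lie above those of the Xbp1 line.

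miR-10a-5p, the abundant member, stood at 9574, 12495, 10220 and 11527 CPM in compound-deficient replicates 1 to 4. In the compound-line wild type it stood at 10687, 9132, 9800 and 9548 CPM in replicates 1 to 4. These ranges overlapped, and the means of 10954 ± 1310 CPM in compound-deficient cells and 9792 ± 658 CPM in wild type (SD, n = 4) differed by less than 1 SD of the deficient group. The log2 fold change was 0.16 (SE 0.21, 95% interval −0.27 to 0.60), so a rise to 1.51-fold or a fall to 0.827-fold both lay within the interval. Its sign turned with upper-quartile scaling, to −0.11, where the median of all 255 microRNAs also moved to −0.24.

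In Xbp1-deficient cells miR-10a-5p stood at 7149, 4635, 6840 and 8915 CPM in replicates 1 to 4, and in the wild type of that line at 6859, 3846, 5559 and 8954 CPM in replicates 4, 5, 6 and 8. The ranges overlapped almost wholly. The means were 6885 ± 1756 CPM in Xbp1-deficient cells and 6304 ± 2154 CPM in wild type (SD, n = 4), and the log2 fold change was 0.13 (SE 0.21, 95% interval −0.31 to 0.56). With 1 library left out in turn it ran from −0.05 to 0.34. miR-10a-5p was thus called in neither comparison with wild type, where 5.88% of microRNAs were called in compound-deficient and 2.35% in Xbp1-deficient cells. A missed threshold does not show that its level was equal.

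The ratio of the members within a library uses no scaling, so it holds whatever library size is assumed. Compound-deficient replicates 1 to 4 had 15.1, 13.5, 22.2 and 13.2 counts of miR-10a-5p per count of miR-10b-5p. Their wild-type libraries had 5.92, 5.38, 4.97 and 6.19. Every compound-deficient library thus lay well above the highest wild-type library. On the log2 scale the mean ratio was 3.96 ± 0.35 in compound-deficient cells and 2.48 ± 0.14 in wild type (SD, n = 4), a difference of 1.48.

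In the Xbp1 line the ratio was 12.8, 8.55, 9.0 and 12.2 in deficient replicates 1 to 4, and 7.28, 4.90, 2.63 and 8.94 in wild-type replicates 4, 5, 6 and 8. The groups overlapped here, since wild-type replicate 8 lay above deficient replicate 2. The mean log2 ratio was 3.39 ± 0.30 in Xbp1-deficient cells and 2.43 ± 0.78 in wild type (SD, n = 4), a difference of 0.96, which was 0.62 without wild-type replicate 6. The ratio was close to the same in both wild types, at a geometric mean of 5.60 in the compound line and 5.38 in the Xbp1 line, and stood at 15.6 in compound-deficient and 10.5 in Xbp1-deficient cells. Reads of miR-10a-5p miscounted as miR-10b-5p would add to the smaller count, and how many there were was not measured.

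**Figure D2:**
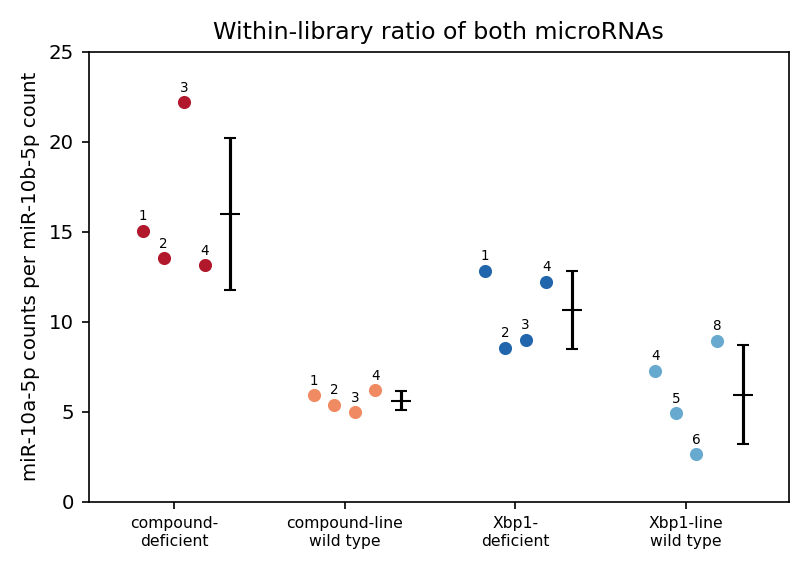
Counts of miR-10a-5p per count of miR-10b-5p in each library, by group, with replicate numbers, the mean and SD (n = 4). The compound-deficient libraries lie between 13.2 and 22.2 and their wild type between 4.97 and 6.19, without overlap, whereas the groups of the Xbp1 line overlap at wild-type replicate 8.

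Between the deficient genotypes, miR-10a-5p was the member whose libraries did not overlap. All 4 compound-deficient libraries lay above all 4 Xbp1-deficient libraries, which reached 8915 CPM at most. The log2 fold change of compound-deficient over Xbp1-deficient cells was 0.67 (SE 0.21, 95% interval 0.23 to 1.11), a fold of 1.59, where the median of all 255 microRNAs was 0.13. In this comparison 12 microRNAs, or 4.71%, were separated with the compound-deficient libraries higher, and miR-10a-5p was one of them. It was not among the 13 called higher, 5.1% of those tested. It was called in 1 of the 8 fits with a library left out, the one without Xbp1-deficient replicate 4. Of 8 other settings that kept both microRNAs apart, 3 called it: total counts as the only scaling, no filter, and DESeq2. Nothing is read from these calls. For miR-10b-5p the same comparison gave 0.15 on the log2 scale (SE 0.27, 95% interval −0.41 to 0.71), and its values of 461 to 924 CPM in compound-deficient cells spanned the whole range of the Xbp1-deficient libraries. That interval also holds the 0.67 of miR-10a-5p, so a difference between the members is not shown here.

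The wild types of both lines showed nearly the same difference in miR-10a-5p. The compound-line wild-type libraries all lay above the Xbp1-line wild-type libraries, at 0.64 on the log2 scale (SE 0.21, 95% interval 0.20 to 1.07), a fold of 1.55. Separation with the compound line higher held for 6 of the 255 microRNAs, or 2.35%. For miR-10b-5p the log2 fold change between the wild types was 0.54 (SE 0.26, 95% interval −0.02 to 1.09), and the groups overlapped, because Xbp1-line replicate 6 lay above all compound-line libraries. Without that replicate it was 0.95, and edgeR then called miR-10b-5p. No microRNA was called between the wild types in edgeR, 0% of those tested, where 24 had an unadjusted p under 0.05. DESeq2 called 4 of the 255, and limma called 0 of the 473 microRNAs with deposited log2 values. Without the filter on low counts, so over every microRNA with a count, edgeR called 14. Among them was miR-10a-5p at a log2 fold change of 0.54.

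Mean total microRNA counts were higher in both groups of the Xbp1 line than in the compound line, though the ranges overlapped. Depth here means these totals. Within groups the libraries with fewer counts tended to have more miR-10a-5p. Over the 16 libraries the deviations of its log2 CPM from the group mean and those of log2 total counts had a Pearson's r of −0.43, a description that carries no p. For miR-10b-5p this r was −0.24. Libraries of similar depth can be set side by side only one by one. Compound-deficient replicate 1, with 978134 counts, had 9574 CPM of miR-10a-5p, and Xbp1-deficient replicate 2, with 969371 counts and the lowest level of its group, had 4635 CPM. Compound-line wild-type replicate 1, with 363349 counts, had 10687 CPM, and Xbp1-line wild-type replicate 8, with 400210 counts, had 8954 CPM. Each was the highest level of its group. Compound-line wild-type replicate 3, with 882108 counts, had 9800 CPM, and Xbp1-line wild-type replicate 6, with 753185 counts, had 5559 CPM. Depth differed less between the genotypes of the compound line, with mean totals of 524042 in compound-deficient cells and 518607 in wild type. The part of depth in these differences was not tested.

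Whether the compound deletion changed either microRNA by another amount than loss of Xbp1 alone is the difference of both changes. For miR-10a-5p this difference was 0.03 on the log2 scale (SE 0.29, 95% interval −0.58 to 0.65). For miR-10b-5p it was −0.38 (SE 0.38, 95% interval −1.17 to 0.40), so the lines were not told apart in how far the level was lower. Without Xbp1-line wild-type replicate 6 the value for miR-10b-5p was −0.80. Of the 255 microRNAs, edgeR called 0, or 0%, for this difference, with 26 at an unadjusted p under 0.05, and DESeq2 called 1. Limma called 0 of the 473 microRNAs with deposited log2 values.

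**Figure D3:**
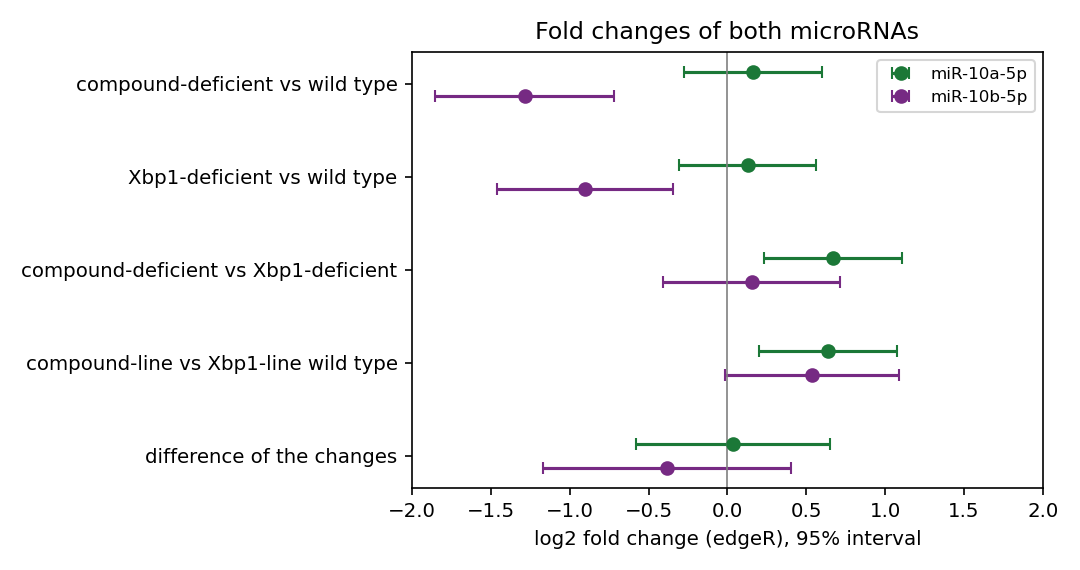
Log2 fold changes of miR-10a-5p and miR-10b-5p in the comparisons of the study, first-named group over second, with 95% intervals from the edgeR fit of all 16 libraries. miR-10b-5p lies at −1.29 and −0.90 against wild type, and miR-10a-5p at 0.67 and 0.64 between the lines.

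Ordered by mean level, miR-10a-5p ran from compound-deficient cells through their wild type and Xbp1-deficient cells down to the Xbp1-line wild type. In that order the second and the third group did not overlap, while the first pair and the last pair did. miR-10b-5p ran from the compound-line wild type through the Xbp1-line wild type and compound-deficient cells down to Xbp1-deficient cells, and each group overlapped with the next. By mean CPM miR-10a-5p was among the most abundant microRNAs, at rank 17 of 255 in compound-deficient cells, 15 in their wild type, 20 in Xbp1-deficient cells and 21 in theirs. miR-10b-5p took rank 67 in compound-deficient cells and 53 in their wild type, and 66 in Xbp1-deficient cells and 54 in theirs.

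As a share of all microRNA counts, miR-10a-5p took 1.08% ± 0.157 in compound-deficient cells and 1.04% ± 0.0506 in their wild type, and 0.647% ± 0.161 in Xbp1-deficient cells and 0.638% ± 0.219 in their wild type (SD, n = 4). miR-10b-5p took 0.0718% ± 0.0233 in compound-deficient cells and 0.187% ± 0.0223 in their wild type, and 0.0608% ± 0.00903 in Xbp1-deficient cells and 0.123% ± 0.0625 in their wild type. The smallest count of either microRNA was 166, for miR-10b-5p in compound-deficient replicate 4, a share of 0.0948% with a 95% Wilson interval of 0.0814% to 0.110%. Reads without molecular identifiers are not independent molecules, so such intervals cover counting error only. Counting error at 166 counts is 7.76% of the value, against a spread of 29.9% (SD over mean) between the compound-deficient libraries. For miR-10a-5p, with 2183 counts or more per library, it was at most 2.14%, against spreads of 12.0% in compound-deficient cells, 6.71% in their wild type, 25.5% in Xbp1-deficient cells and 34.2% in theirs. Libraries of 1 group thus differed by more than counting error.

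**Figure D4:**
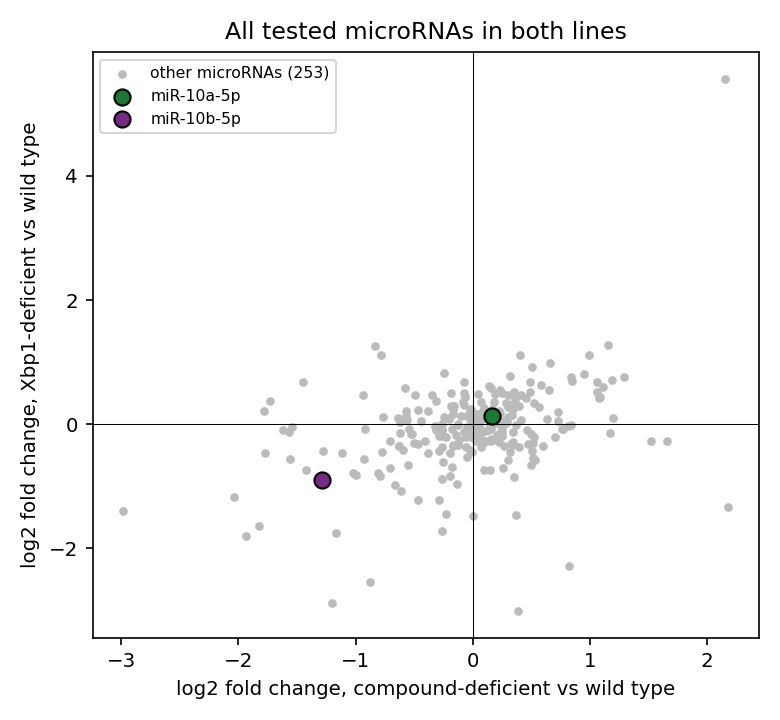
Log2 fold change against wild type of all 255 tested microRNAs, in compound-deficient cells (horizontal) and Xbp1-deficient cells (vertical). miR-10b-5p, at −1.29 and −0.90, lies in the lower left, and miR-10a-5p, at 0.16 and 0.13, lies near the middle of the cloud.

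Set among all tested microRNAs, miR-10b-5p lay towards the low end in both lines. Both comparisons were in view when it was chosen and come from the same fit, so their likeness is not read as support. A lower log2 fold change than its own was found for 5.10% of microRNAs in compound-deficient cells and 7.45% in Xbp1-deficient cells. For miR-10a-5p these shares were 62.0% and 67.5%, near the middle. In compound-deficient over Xbp1-deficient cells 86.3% of microRNAs lay below miR-10a-5p, and between the wild types 88.2% did. Below miR-10b-5p lay 53.7% and 85.9% in these comparisons.

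The members varied largely apart from each other. Over the 16 libraries their log2 CPM values had a Pearson's r of 0.18 and a Spearman's rho of 0.15, and deviations from the group means had an r of 0.29, all given as descriptions. Ranked by this r, miR-10b-5p stood at place 77 of 254 in likeness to miR-10a-5p. The 3 most like miR-10a-5p were MIMAT0031395, MIMAT0000514 and MIMAT0000515, with r of 0.77 in each. Within groups the r of deviations was 0.49, 0.69 and 0.70 in that order. The 3 most like miR-10b-5p were MIMAT0000158, MIMAT0000590 and MIMAT0000224, with r of 0.76, 0.76 and 0.75, and 0.45, 0.52 and 0.53 within groups. All these values come from the same libraries and share their scaling, and the identifiers are given alone because the files do not pair them with names.

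**Figure D5:**
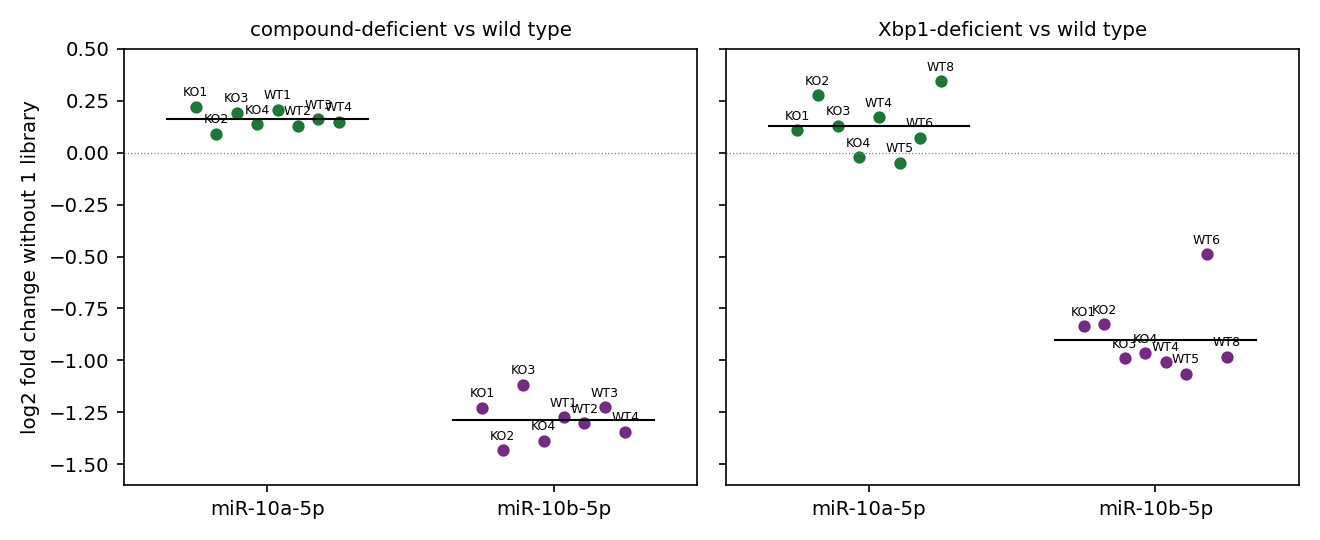
Log2 fold change against wild type with each library left out in turn (points, labelled by the library left out) and with all libraries (black line), for compound-deficient cells (left) and Xbp1-deficient cells (right). miR-10b-5p stays between −1.43 and −1.12 in the compound line and between −1.06 and −0.49 in the Xbp1 line, where the point nearest 0 is the fit without wild-type replicate 6.

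The size of the difference in miR-10b-5p between compound-deficient cells and their wild type did not rest on 1 library. Leaving out each of the 8 libraries kept the log2 fold change between −1.43 and −1.12. In Xbp1-deficient cells the same procedure gave −1.06 to −0.49. With the reads of both microRNAs summed as 1 feature, the log2 fold change was 0.016 in compound-deficient and 0.0038 in Xbp1-deficient cells, since miR-10a-5p holds most of the sum. A count at the level of the shared seed therefore does not show the difference in miR-10b-5p.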

How the data were processed

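Per the labels' protocols, 5000 to 50000 cDC1s per sample were sorted into Qiazol, the kit for small RNA libraries was TruSeq, and these were size selected. Bowtie 1.1.2, cutadapt 1.8.1, limma 3.42.2 and FastQC 0.11.3, with GRCm38 and mm10 as builds, are listed in the submitters' processing notes, which state no role for any. The authors deposited raw counts of 853 mature microRNAs, 45 of them at 0 everywhere, and log2 values of 473, which from the values are log2 CPM of the count plus 0.5 on TMM-scaled library sizes (differences at most 5.15e-14). Groups and replicate numbers come from the sample descriptions.

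Counts were fitted with edgeR 4.0.16 in R 4.3.3: TMM, filterByExpr (count minimum 10), 1 quasi-likelihood fit of 4 group means, Benjamini-Hochberg over 255 microRNAs, threshold 0.05. Each SE came from the log2 fold change and its F statistic. The fit was run on simulated counts with the same spread for all microRNAs and known changes in compound-deficient libraries alone. Those settings are simpler than these data, so nothing is read from that run. The filter left at least 99.87% of each library's counts. Libraries of a group differed beyond counting noise (chi-square per degree of freedom at least 15.7). log2 CPM used a prior count of 1.

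The alternatives were 3 other scalings, no filter, DESeq2 1.42.0, limma 3.58.1 on the deposited log2 values, the compared groups alone, a replicate block, both microRNAs summed and each library left out. Members and lists were chosen with earlier results of these data known. The named microRNAs are the 2 members and the 3 most like each by r. Lists of other Hox-locus microRNAs, miR-10 relatives and markers of other cell types matched 0 identifiers, because no table used here pairs them with names, and were not tested.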

Additional observations from a re-analysis of the deposited data

How the results depend on the processing

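miR-10b-5p stayed below wild type with every scaling, filter, tool and left-out library tried in both lines, and was called in compound-deficient cells in all but limma on the deposited log2 values. Leaving out 1 library could not turn the sign, because all deficient libraries lay below all wild-type libraries in CPM. Nothing is read from the unchanged sign. With both microRNAs summed, the log2 fold change was 0.016 in compound-deficient cells, 0.0038 in Xbp1-deficient cells and 0.63 between the deficient genotypes. With upper-quartile scaling miR-10a-5p stood at −0.11 in compound-deficient cells and −0.38 in the difference of the changes, where the median of all microRNAs moved to −0.24 and −0.36.

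With 1 library left out, the log2 fold changes of miR-10a-5p ran from 0.09 to 0.22 in compound-deficient cells, from −0.05 to 0.34 in Xbp1-deficient cells, from 0.52 to 0.82 between the deficient genotypes, from 0.46 to 0.85 between the wild types and from −0.18 to 0.21 for the difference of the changes. Those of miR-10b-5p ran from 0.01 to 0.32 between the deficient genotypes, from 0.38 to 0.95 between the wild types and from −0.80 to −0.22 for the difference of the changes. The log2 ratio differed by 1.31 to 1.56 in the compound line and 0.62 to 1.21 in the Xbp1 line.

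Numbers called here are out of 255, except in limma (473) and without the filter (every microRNA with a count). In compound-deficient against wild-type cells 15 microRNAs were called, 24 with upper-quartile scaling (3 higher, 21 lower), 24 in DESeq2, 1 in limma, 6 in the compared groups alone, 4 with the replicate block and 5 to 18 without 1 library. In Xbp1-deficient against wild-type cells 6 were called, 15 without the filter, 18 in DESeq2, 3 in limma, 13 in the compared groups alone and 2 to 9 without 1 library. Between the deficient genotypes 19 were called, 32 in DESeq2, 0 in limma, 7 in the compared groups alone, 9 with the replicate block and 0 to 20 without 1 library. Between the wild types 0 were called in edgeR, 14 without the filter, 4 in DESeq2, 2 in the compared groups alone and 0 to 2 without 1 library. For the difference of the changes 0 were called in edgeR, 3 with upper-quartile scaling, 2 without the filter, 1 in DESeq2 and 0 to 1 without 1 library. The causes were not tested. Calls between the deficient genotypes split into 13 higher and 6 lower, 13 and 12 with DESeq2 size factors, 14 and 1 with total counts alone, and 4 and 22 with upper-quartile scaling, and total counts alone gave 8 and 11 in compound-deficient against wild-type cells.

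Replicate numbers are shared within the compound line and between the deficient genotypes. In the compound line, deviations of libraries with the same number had r of −0.26 to 0.26, and those with unlike numbers −0.30 to 0.26. With 4 libraries per group this cannot decide whether the numbers pair libraries. With the replicate block miR-10b-5p stood at −1.32 in compound-deficient cells and miR-10a-5p at 0.70 between the deficient genotypes.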
